A study of Mus musculus with 8 samples.

Results

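The metallothionein genes Mt1 and Mt2, the zinc sensor gene Mtf1 and the metal transporter genes Slc30a1, Slc30a10 and Slc39a14 were followed in mouse liver after a pulse of growth hormone (GH). The 6 genes were taken by symbol from a table of 24197 genes, and all 6 were found. They were picked with their levels in this table in view, so their values and the p-values printed with them are a description and support no claim about the choice. Liver came from male CD-1 mice, an outbred stock, whose pituitary had been removed at 7 weeks of age and which were used at 11 weeks. The groups were untreated mice and mice killed 30, 90 or 240 min after 1 intraperitoneal injection of rat GH, made recombinantly and dosed at 125 ng for each g of mouse. All 4 groups thus shared the loss of the pituitary, which removes GH along with the hormones that drive the thyroid, the adrenal cortex and the gonads. Each group had 2 libraries, each from pooled liver RNA of 4 mice per the legend, so the spread between libraries is a spread between pools and not between mice. The labels speak both of a vehicle injection and of untreated controls, so an effect of the injection and an effect of GH cannot be told apart here.

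Metallothioneins are small cysteine-rich proteins that bind zinc and copper, and liver is one of their main sites of synthesis. MTF1 is the transcription factor that senses free zinc and binds metal response elements in the promoters of Mt1, Mt2 and Slc30a1. SLC30 proteins move zinc out of the cytosol, across the cell membrane or into vesicles, while SLC39 proteins bring metal into the cytosol. Mt1, Mt2 and Slc39a14 are also known to be induced in liver by inflammatory cytokines, and the metallothioneins by glucocorticoids.

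On the mm9 build of the table, Mt2 (chr8:96696518-96697467) and Mt1 (chr8:96702989-96704227) lay beside each other on chromosome 8. Mtf1 lay at chr4:124479793-124527044 and Slc39a14 at chr14:70703274-70751231. On chromosome 1, Slc30a10 was placed at chr1:187278727-187292640 and Slc30a1 at chr1:193730660-193737126. Summed exon lengths were 542 nt for Mt1, 556 nt for Mt2, 7631 nt for Mtf1, 5230 nt for Slc30a1, 5835 nt for Slc30a10 and 5208 nt for Slc39a14. The introns of Mt1 and Mt2 were short, at 697 and 394 nt, against 42750 nt for Slc39a14.

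Promoter windows of 300 bases, from 250 before to 50 after the gene start, were available for 5 of the 6 genes from RefSeq on build GRCm38.p6. The core of the metal response element was searched as TGCACNC or TGCGCNC on both strands, and overlapping matches were counted separately. The windows that held it are shown, since MTF1 acts through this element, and the matches are in capitals. All are on the plus strand: Mt1 at chr8:94178839-94179138, Mt2 at chr8:94172368-94172667, Slc30a1 at chr1:191906531-191906830 and Slc30a10 at chr1:185454598-185454897.
Mt1: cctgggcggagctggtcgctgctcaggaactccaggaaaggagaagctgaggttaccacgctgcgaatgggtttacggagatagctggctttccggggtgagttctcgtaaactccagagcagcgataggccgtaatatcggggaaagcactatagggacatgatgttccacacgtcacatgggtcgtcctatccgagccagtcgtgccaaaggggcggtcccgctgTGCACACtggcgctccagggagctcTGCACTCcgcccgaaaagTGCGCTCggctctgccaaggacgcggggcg
Mt2: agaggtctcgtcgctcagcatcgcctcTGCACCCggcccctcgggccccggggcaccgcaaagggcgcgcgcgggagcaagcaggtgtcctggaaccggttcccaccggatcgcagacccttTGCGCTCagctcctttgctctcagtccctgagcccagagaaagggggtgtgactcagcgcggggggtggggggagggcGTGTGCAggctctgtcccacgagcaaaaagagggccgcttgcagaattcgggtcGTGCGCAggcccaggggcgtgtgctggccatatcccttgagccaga
Slc30a1: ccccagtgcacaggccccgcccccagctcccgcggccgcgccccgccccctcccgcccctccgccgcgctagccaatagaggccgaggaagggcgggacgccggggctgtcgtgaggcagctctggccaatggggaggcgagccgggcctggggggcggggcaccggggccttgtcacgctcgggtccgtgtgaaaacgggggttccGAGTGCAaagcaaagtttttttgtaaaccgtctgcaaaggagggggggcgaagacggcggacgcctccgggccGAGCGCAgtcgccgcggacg
Slc30a10: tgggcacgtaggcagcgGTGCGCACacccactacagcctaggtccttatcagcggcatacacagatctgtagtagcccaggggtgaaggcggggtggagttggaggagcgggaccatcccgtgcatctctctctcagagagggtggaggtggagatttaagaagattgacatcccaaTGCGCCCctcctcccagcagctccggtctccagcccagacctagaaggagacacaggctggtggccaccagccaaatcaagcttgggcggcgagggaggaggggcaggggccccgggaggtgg
The Mt2 window held 4 matches, the Mt1 window 3, the Slc30a1 window 2, and the Slc30a10 window 3, of which 2 were 1 overlapping run read on both strands. Among all 32851 windows of that length, 25.7% held at least 1 match, 7.11% at least 2, 1.97% at least 3 and 0.517% at least 4. The Mtf1 window held none. TTCNNNGAA, the spaced core bound by STAT factors and read the same on both strands, was in none of these 5 windows and in 8.30% of all windows. A match is a description of letters and says nothing of binding.

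The libraries held 5937824 to 17124712 counted reads each. Levels are the authors' mean FPKM (reads per kilobase of exon or intron, scaled by the library's read total) over the pools of a group. The table holds them once for the gene body and once for introns, whose reads mostly mark RNA that has not been spliced. Because such a mean can arise from only certain whole read counts, the reads of both pools could be worked out for 10671 of the 10736 genes with a mean of at least 1 FPKM, among them all 6 genes here. Values of single pools below come from these recovered reads, with the pool of the smaller read total given first. A ratio, and whether a gene was called changed (adjusted p below 0.05), come from the authors' deposited table. Ratios of the 3 times share the same untreated pools. Over introns the quotient of the authors' FPKM means exceeded their ratio by a median factor of 1.10 at 30 min, 1.48 at 90 min and 1.31 at 240 min, and over gene bodies the median factor was 0.967, 1.00 and 1.04. The intronic factor varied between genes, with a 5th to 95th percentile range of 1.13 to 1.499 at 240 min, where it was 1.11 for Mt1, 1.17 for Mt2 and 1.43 for Slc30a10. At 30 min it was 0.89 for Mt1 and 0.902 for Mt2, whose ratio was thus above the quotient. The scale of intronic reads also differed 1.87-fold between the 30 min pools, and at most 1.18-fold between the pools of any other group.

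The metallothionein mRNAs were the most abundant of the 6, Mt1 was lower late after GH, and the intronic reads of both genes were then almost gone. Mt1 gene body FPKM was 838 and 935 in the untreated pools, 1221 and 796 at 30 min, 937 and 1036 at 90 min, and 447 and 593 at 240 min. The 240 min pools were both below every other pool, the 30 min pools lay on either side of the untreated pools, and the 90 min pools were slightly above them. In the authors' deposited table Mt1 fell at 240 min, with a log2 ratio of -0.82 and an adjusted p of 0.000107. The ratios at 30 and 90 min, 0.24 and 0.15 on the log2 scale, did not pass, with adjusted p of 1 and 0.638 in the authors' deposited table. In limma on the recovered reads the 240 min difference passed with all pools (adjusted p = 0.0404). It passed in none of the 4 fits without 1 untreated or 240 min pool, with adjusted p from 0.0787 to 0.275. The fit shares 1 estimate of the spread over all groups, so pools of the other times also matter. The 240 min difference passed when either of the 30 min pools was left out. It did not pass when either of the 90 min pools was left out.

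Mt2, the partner gene next to Mt1, had gene body FPKM of 657 and 794 in the untreated pools, 1191 and 549 at 30 min, 792 and 805 at 90 min, and 250.2 and 665 at 240 min. The pools of 30 min and of 240 min stood far apart from each other, and at 240 min the higher pool overlapped the untreated range. The gap at 240 min was 2.66-fold, a size that 0.215% of the 9304 genes with at least 100 reads in that group reached, their median being 1.15-fold. Its log2 ratio at 240 min was -0.70 in the authors' deposited table, with an adjusted p of 0.204, and it was not called. Mt1 and Mt2 transcripts share no run of 25 or more bases and 20 at the longest, so reads longer than that can be told apart where they match exactly. Mt3 and Mt4, the brain and epithelial members of the family, were listed at 0 in every group.

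**Figure D1:**
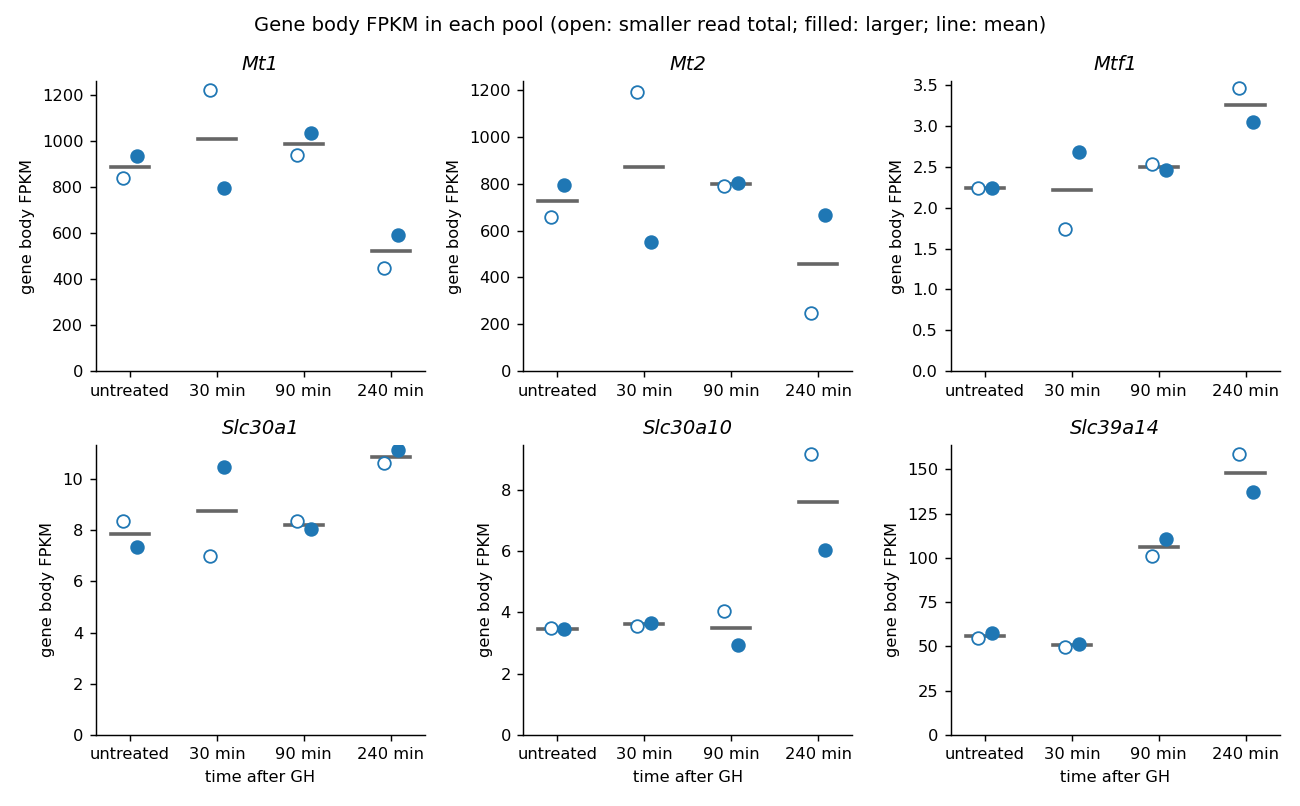
Gene body FPKM of the 6 genes (vertical axes, from 0) in the untreated, 30, 90 and 240 min groups. Open and filled circles are the pools of the smaller and larger read total, and lines are the means. Slc39a14 runs from about 56.0 in untreated liver to 148 at 240 min, whereas Mt1 drops from 886 to 520.

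The intronic reads of both metallothionein genes were lower by a much larger factor. Mt1 intronic FPKM was 46.5 and 39.6 in the untreated pools, 51.4 and 17.6 at 30 min, 50.6 and 11.3 at 90 min, and 0.725 and 1.32 at 240 min. These last values rest on 3 and 13 reads, with exact Poisson 95% intervals of 0.619 to 8.77 and 6.92 to 22.2 reads that cover counting error only, against 241 and 290 reads in the untreated pools. Both 240 min pools were far below all others, while by FPKM at 30 and 90 min 1 pool stayed near the untreated level and the other was several-fold lower. The place of the higher pool depends on the scaling. With reads divided by each pool's own intronic scale, Mt1 had 401 and 362 untreated, 589 and 108 at 30 min, and 288 and 65.2 at 90 min.

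Mt2 intronic FPKM followed the same order, with 48.5 and 37.2 in the untreated pools, 44.4 and 17.01 at 30 min, 46.2 and 8.45 at 90 min, and 1.28 and 1.61 at 240 min. In every group the pool with less Mt1 intron also had less Mt2 intron. In the authors' deposited table the 240 min log2 ratio over introns was -5.55 for Mt1 (adjusted p = 4.48e-78) and -5.11 for Mt2 (adjusted p = 3.49e-49), and both fell. Of 9897 genes with measurable introns, 2 had a lower ratio than Mt1 and 5 a lower ratio than Mt2. Both calls were kept in limma without any 1 of the 8 pools, with adjusted p of at most 0.0219 for Mt1 and 0.04 for Mt2. The log2 ratios at 90 min, -1.05 for Mt1 and -1.22 for Mt2, did not pass, with adjusted p of 0.293 and 0.265 in the authors' deposited table. In limma without either of the 30 min pools these 90 min differences passed, with adjusted p of 0.0443 and 0.0432 for Mt1 and 0.0301 and 0.0288 for Mt2, and for Mt2 also without the 90 min pool of the smaller read total (0.0233).

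The 90 min pools differed 4.47-fold over the Mt1 introns and 5.47-fold over the Mt2 introns, gaps as large as those of 0.136% and 0.0583% of the 5145 genes with at least 100 intronic reads there, whose median gap was 1.14-fold. Genes among the 8 with the widest gaps at that time, named after their values were seen, included the interferon-inducible genes Tgtp1 (111 and 17 intronic reads), Gbp6 (175 and 37) and Gbp10 (91 and 23) and the acute-phase gene Lcn2 (111 and 27). Sult2a7 (130 and 23) and 4930404H11Rik (272 and 64) were also among the 8. In each of these the pool of the smaller read total held more reads, as it did for Mt1 (542 and 135) and Mt2 (280 and 57). The gene bodies of Mt1 and Mt2 differed by only 1.11-fold and 1.02-fold between the same pools.

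**Figure D2:**
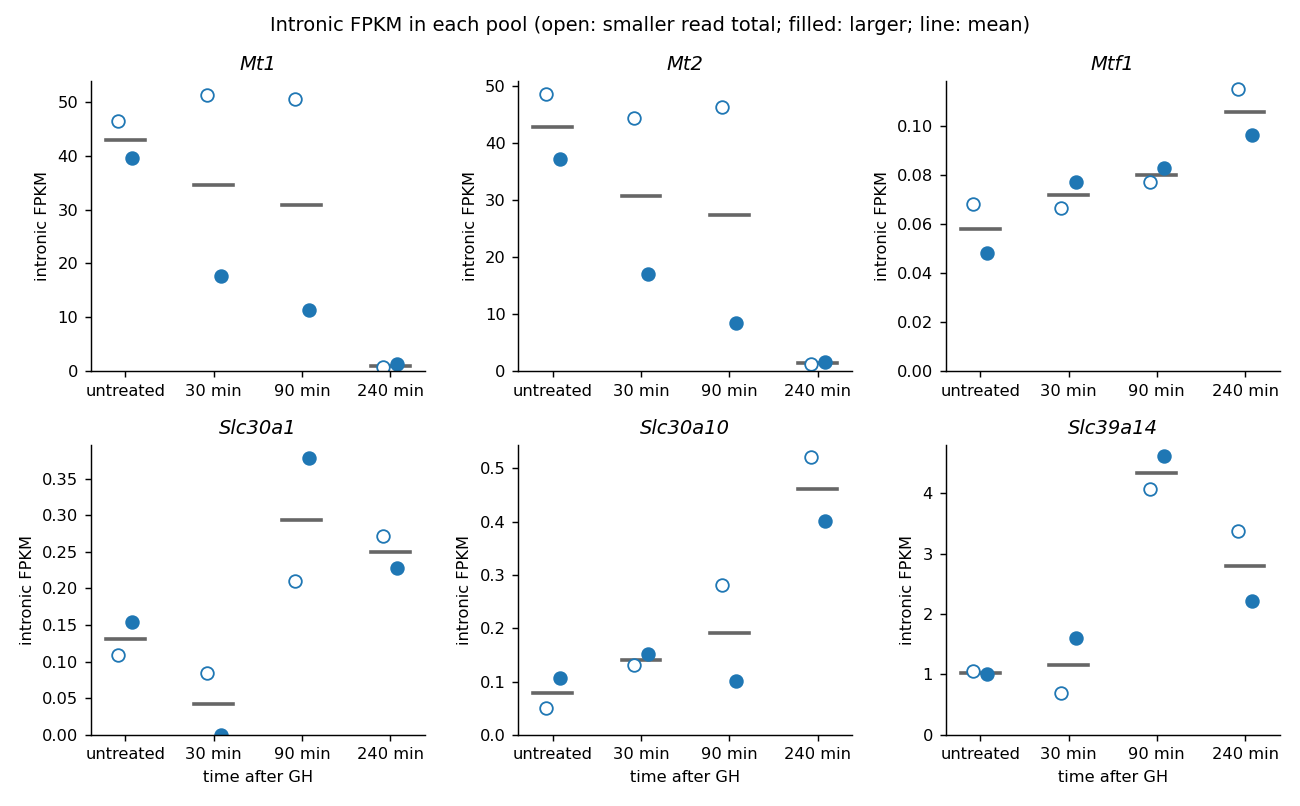
Intronic FPKM of the 6 genes (vertical axes, from 0) by group, with open and filled circles for the pools of the smaller and larger read total and lines for the means. Mt1 and Mt2 spread widely at 30 and 90 min and sit near 0 at 240 min, and the Slc30a1 panel rests on 0 to 8 reads a pool.

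Set against gene body reads within a pool, the intronic reads need no scaling by read totals, though this share itself differs between libraries. Mt1 had 7.13 and 5.44 intronic reads per 100 gene body reads in the untreated pools, 5.41 and 2.85 at 30 min, 6.94 and 1.40 at 90 min, and 0.209 and 0.286 at 240 min. For Mt2 the share was 5.22 and 3.32 untreated, 2.64 and 2.20 at 30 min, 4.13 and 0.744 at 90 min, and 0.363 and 0.172 at 240 min. The 240 min pools of both genes were below all other pools. By this share both 30 min pools were also below the untreated pools, whereas by intronic FPKM 1 of them was not. For Mt1 the 30 min pool of the smaller read total was only just below, at 5.41 against 5.44. Over all solved genes together the same share was 6.73 and 6.32 untreated and 8.49 and 7.04 at 240 min, so it was not lower in those libraries as a whole. At 30 min it was 5.34 and 9.65, so that the pool of the smaller read total was low over all genes as well. At 90 min it was 10.05 and 9.89.

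Mtf1, the zinc-sensing factor itself, was expressed at a low level. Its gene body FPKM was 2.24 and 2.24 untreated, 1.74 and 2.69 at 30 min, 2.53 and 2.46 at 90 min, and 3.46 and 3.06 at 240 min. The 240 min pools were the highest, and the 30 min pools lay on either side of the untreated pools. In the authors' deposited table its log2 ratio at 240 min was 0.48 with an adjusted p of 0.0522, which did not pass, and it was called there at no time on either measure. In limma its 240 min adjusted p was 0.2 with all pools, and 0.0369 and 0.0387 without either of the 30 min pools. Its introns gave 20 and 20 reads in the untreated pools and 27 and 54 at 240 min.

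Slc30a1 encodes ZnT1, the exporter of zinc at the cell membrane and a target of MTF1. Its gene body FPKM was 8.38 and 7.36 untreated, 7.01 and 10.5 at 30 min, 8.37 and 8.05 at 90 min, and 10.6 and 11.1 at 240 min. The 240 min pools were the highest, though 1 pool at 30 min came close to them. Its log2 ratio at 240 min was 0.42 in the authors' deposited table, with an adjusted p of 0.0708, and was not called. In limma the adjusted p was 0.235 with all pools, and 0.0399 and 0.0415 without either of the 30 min pools. Its intron gave 0 to 8 reads a pool, too few for a fold change.

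Slc30a10 belongs to the same family and is known as a manganese exporter of hepatocytes. Its gene body FPKM was 3.48 and 3.46 untreated, 3.55 and 3.67 at 30 min, 4.03 and 2.95 at 90 min, and 9.18 and 6.03 at 240 min. The 240 min pools were both well above the rest, and the earlier pools were close to the untreated ones. In the authors' deposited table it rose at 240 min, with a log2 ratio of 1.06 (adjusted p = 7.31e-06).

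Over its introns Slc30a10 had 3 and 9 reads in the untreated pools, 10 and 12 at 30 min, 35 and 14 at 90 min, and 25 and 46 at 240 min. As FPKM these were 0.0499 and 0.106 untreated and 0.521 and 0.402 at 240 min, and the groups did not overlap. The authors' deposited table gave a log2 ratio of 2.05 at 240 min (adjusted p = 7.96e-05), a rise. In limma both Slc30a10 calls at 240 min passed with all pools, but the gene body call was kept in 1 of 4 fits that left out an untreated or 240 min pool (adjusted p of 0.0406 to 0.188), and the intronic call in 0 of 4 (0.0857 to 0.268). Both were kept in all 4 fits without a 30 or 90 min pool.

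Slc39a14 encodes ZIP14, which carries zinc, manganese and iron that is not bound to transferrin into hepatocytes, and it was the one gene of the 6 called at 90 min. Its gene body FPKM was 54.5 and 57.4 untreated, 49.8 and 51.6 at 30 min, 101 and 111 at 90 min, and 159 and 137 at 240 min. The pools of each group lay close together, and no 2 groups overlapped, with the 30 min pools just below the untreated ones. In the authors' deposited table it rose by a log2 ratio of 0.92 at 90 min (adjusted p = 9.83e-14) and of 1.34 at 240 min (adjusted p = 1.29e-17), and its ratio at 30 min was -0.09 (adjusted p = 1). Of 10736 genes, 170 had a higher ratio at 240 min and 408 at 90 min.

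Slc39a14 introns were highest at 90 min. Intronic FPKM was 1.06 and 1.00 untreated, 0.697 and 1.61 at 30 min, 4.07 and 4.61 at 90 min, and 3.37 and 2.22 at 240 min. Both later groups were above the untreated pools, and the 90 min pools were above the 240 min pools. The authors' deposited table gave log2 ratios of 1.51 at 90 min (adjusted p = 2.52e-17) and 1.03 at 240 min (adjusted p = 3.69e-07), both rises. Intronic reads per 100 gene body reads were 15.96 and 14.3 untreated, 32.97 and 34.2 at 90 min, and 17.5 and 13.3 at 240 min. The 30 min pools were far apart at 11.5 and 25.6, and the 240 min pools lay on either side of the untreated pools. Over all solved genes together the share also differed, with 6.73 and 6.32 untreated, 5.34 and 9.65 at 30 min, and 10.05 and 9.89 at 90 min.

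Limma on the recovered reads kept the gene body call of Slc39a14 at 240 min without any 1 of the 8 pools, with adjusted p of at most 0.0419. The gene body call at 90 min passed with all pools (adjusted p = 0.00932) but in none of the 4 fits that left out an untreated or 90 min pool (0.0755 to 0.16), and in all 4 without a 30 or 240 min pool. Its intronic call was kept in 2 of 4 such fits at 90 min, those without a 90 min pool, and in 0 of 4 at 240 min. At both times it was kept in all 4 fits without a pool of the other times.

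**Figure D3:**
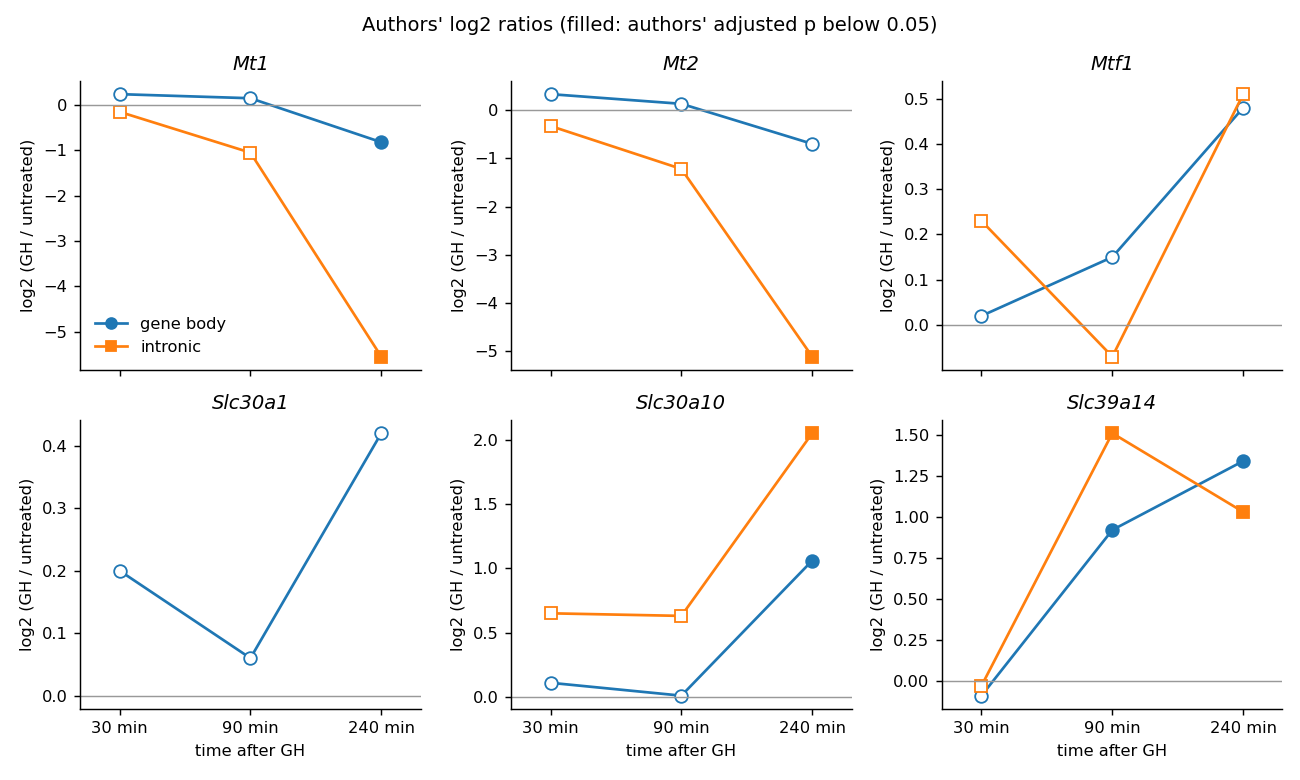
The authors' log2 ratios of treated over untreated (vertical axes, scaled per gene) at 30, 90 and 240 min, equally spaced, for gene bodies (circles) and introns (squares). Filled symbols have an authors' adjusted p below 0.05, Slc30a1 introns are left out for want of reads, and the introns of Mt1 end at -5.55 while its gene body ends at -0.82.

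**Figure D4:**
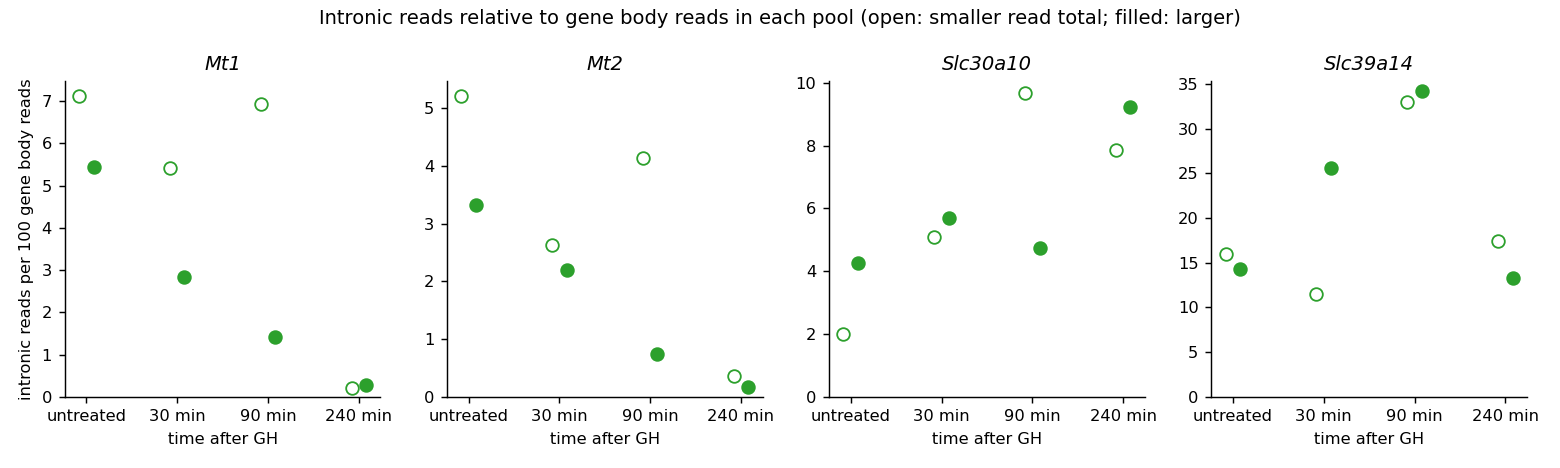
Intronic reads per 100 gene body reads of the same gene (vertical axes, from 0) in each pool by group, with open and filled circles for the smaller and larger read total. The share of Slc39a14 peaks at 32.97 and 34.2 in the 90 min pools, and that of Mt1 is at most 0.286 at 240 min.

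Counted together, the authors' deposited table called 0 of the 6 genes over gene bodies at 30 min, 1 at 90 min and 3 at 240 min, where 0.264%, 13.4% and 10.9% of all 24197 genes were called. Over introns it called 0, 1 and 4, where 0.566%, 6.23% and 4.95% of all genes were called. Since the genes were chosen on these values, nothing is read from these counts. In level, 4 of the 6 genes had their highest mean FPKM at 240 min, namely Mtf1, Slc30a1, Slc30a10 and Slc39a14, and Mt1 and Mt2 had their lowest there. Of these, Mtf1 and Slc30a1 were called at no time. The share of all genes with their highest mean at 240 min was not counted, so nothing is read from this. Over gene bodies, 4 of the 6 genes and 39.6% of all solved genes had both 240 min pools above both untreated pools. Both gene body pools lay on the same side of both untreated pools in 2 of the 6 genes at 30 min, 3 at 90 min and 5 at 240 min, as they did in 38.3%, 69.9% and 65.5% of all solved genes. Over introns this held for 2, 3 and 6 of the 6 genes, against 28.8%, 70.8% and 58.2% of solved genes with intronic signal. Slc30a1 was counted at every time, on 0 to 8 intronic reads a pool. These positions use FPKM, by which both 90 min pools were higher in 62.7% of those genes and lower in 8.05%. With reads divided by each pool's own intronic scale, Mtf1 and Slc30a1 overlapped the untreated pools at 90 min, while Mt1 and Mt2 lay below them.

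The other zinc and metal transporters were read beside these, from a list of both families. Of the 21 other SLC30 and SLC39 genes in the table, 13 had a mean of at least 1 FPKM. The authors' deposited table called 0 of the 21 at 30 min, 5 at 90 min and 7 at 240 min, with all 7 higher, where 13.4% of all genes were called at 90 min and 6.70% were higher at 240 min. The 5 at 90 min were all among the 13, with 4 higher and 1 lower. Of all genes of at least 1 FPKM, 28.4% were called at that time. Among the 13 measured genes 6 were higher and 0 lower at 240 min, next to 14.4% higher and 8.58% lower of all genes of at least 1 FPKM. Their median log2 ratio was 0.20, beside 0.03 for all measured genes.

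Slc30a5, which loads zinc into the early secretory pathway, had FPKM of 12.9 and 11.9 untreated and 27.3 and 28.6 at 240 min. The groups were well apart, and the authors' deposited table gave it a log2 ratio of 1.13 (adjusted p = 4.83e-11). Slc30a7, a Golgi zinc transporter, had FPKM of 2.295 and 2.08 untreated and 5.06 and 3.38 at 240 min, and rose by 0.88 in the authors' deposited table (adjusted p = 0.000369). Slc39a7, which releases zinc from the endoplasmic reticulum and Golgi, had FPKM of 28.03 and 32.6 untreated, 21.5 and 24.01 at 90 min, and 61.5 and 53.6 at 240 min. It was lower at 90 min and higher at 240 min in both pools, with log2 ratios of -0.42 and 0.86 in the authors' deposited table (adjusted p of 0.0145 and 1.37e-06).

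Slc30a4, a vesicular zinc transporter, was up at both later times, with FPKM of 2.48 and 2.53 untreated, 5.18 and 5.66 at 90 min, and 4.70 and 5.30 at 240 min. Its log2 ratios were 1.11 and 0.96 in the authors' deposited table (adjusted p of 1.17e-11 and 7.79e-06). Slc30a9 and Slc39a9 rose by less, with log2 ratios of 0.35 and 0.34 at 90 min and 0.48 each at 240 min in the authors' deposited table. Slc39a10, a cell membrane zinc importer that MTF1 is known to repress, had FPKM of 0.650 and 0.652 untreated and 1.80 and 1.10 at 240 min, and rose by 1.03 in the authors' deposited table (adjusted p = 0.00994). Its mean of 0.954 FPKM was below the limit for measured genes, and the rise rests on 24 and 34 reads untreated and 53 and 77 at 240 min. Over introns its ratio at 240 min, not on the log2 scale, was 0.56 and so went the other way. Slc39a1, the most abundant of the others at a mean of 41.5 FPKM over the groups, was called at no time.

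**Figure D5:**
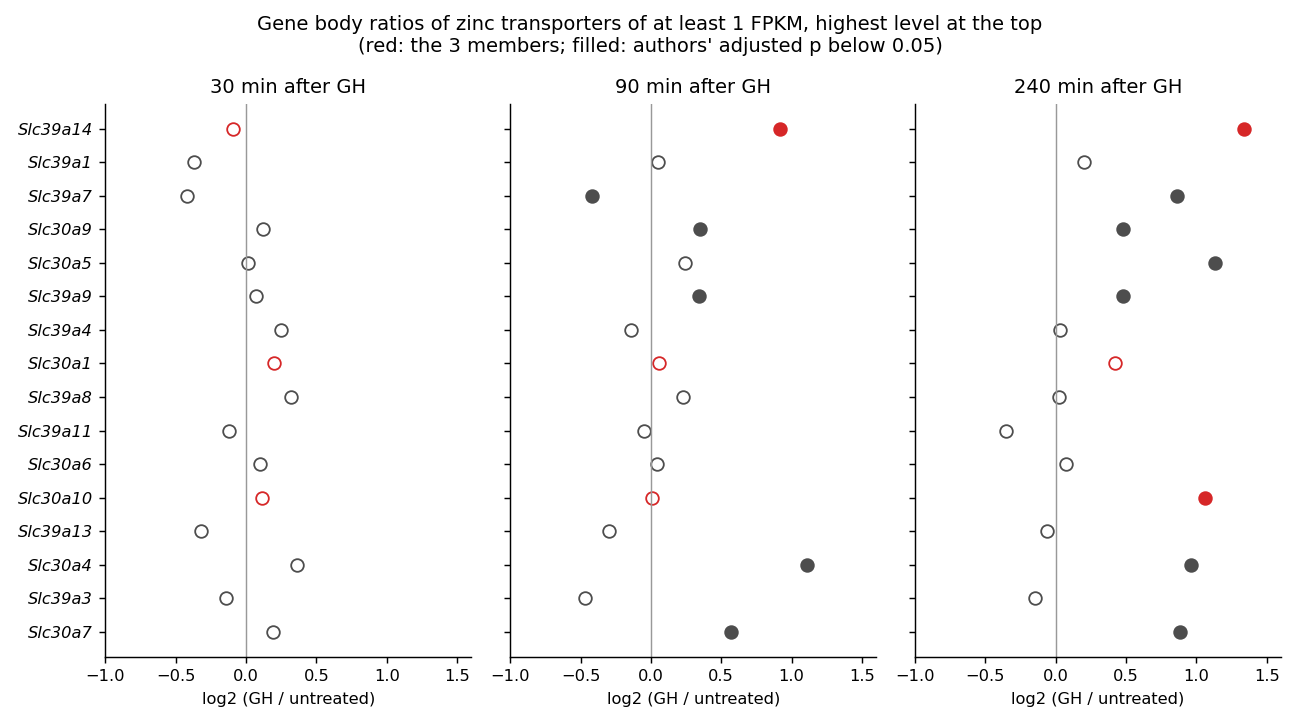
The authors' gene body log2 ratios (horizontal axes) of the 16 SLC30 and SLC39 genes with a mean of at least 1 FPKM, ordered from the highest level at the top, at each time. Red symbols are Slc39a14, Slc30a1 and Slc30a10 and filled symbols have an authors' adjusted p below 0.05, which none has at 30 min.

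Length and GC content moved with the ratios over all measured genes, with a Spearman correlation of 0.485 with transcript length and -0.508 with GC content at 90 min. With a fitted trend on both removed, the 240 min log2 ratios became 1.34 for Slc39a14, 0.92 for Slc30a10, 0.35 for Mtf1, 0.24 for Slc30a1, -0.72 for Mt1 and -0.58 for Mt2. The 90 min values of Slc30a7 and Slc30a9 went from 0.57 to -0.02 and from 0.35 to 0.01, those of Slc39a7 and Slc39a9 from -0.42 to -0.10 and from 0.34 to 0.11, and those of Mt1 and Mt2 from 0.15 to 0.47 and from 0.13 to 0.53. At 240 min Slc30a9 went from 0.48 to 0.23, Slc30a7 from 0.88 to 0.52 and Slc30a4 from 0.96 to 0.62. For Mt1 the trend used the 1085 nt of its longest annotated transcript, against a summed exon length of 542 nt, so its values after removal rest on that length.

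Genes of copper handling moved in both directions. Of 13 measured, the authors' deposited table had 3 higher and 4 lower over gene bodies at 90 min, and 3 higher and 0 lower at 240 min. Of all genes of at least 1 FPKM, 15.9% were higher and 12.5% lower at 90 min, and 14.4% higher and 8.58% lower at 240 min. Among the higher were Atp7b, the copper exporter of hepatocytes, with log2 ratios of 0.89 at 90 min and 0.59 at 240 min, and the metalloreductase gene Steap4, with 1.11 and 0.88, in the authors' deposited table. Sod1, the copper and zinc superoxide dismutase gene, was lower at 90 min, with -0.57 in the authors' deposited table. Of 7 iron and manganese transporters, 2 were higher and 2 lower at 240 min, beside the same 14.4% and 8.58% of all genes, led by the transferrin receptor gene Tfrc (log2 ratio 1.20) and the iron exporter gene Slc40a1 (-0.61) in the authors' deposited table.

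Other reported MTF1 targets gave 1 higher and 2 lower of 5 measured at 90 min, and 0 higher and 1 lower at 240 min, where 15.9% and 12.5% of all genes of at least 1 FPKM were higher and lower at 90 min and 14.4% and 8.58% at 240 min. Sepw1, a selenoprotein gene, fell by 0.62 at 90 min and by 0.64 at 240 min, and Hamp, the iron hormone hepcidin, by 0.67 at 90 min, on the log2 scale of the authors' deposited table. Of 8 measured oxidative stress targets of NRF2, 2 were higher and 3 lower at 90 min, and 0 higher and 2 lower at 240 min, to be read against the same shares. Hmox1, the haem oxygenase gene, had log2 ratios of -1.20, -0.55 and -0.53 at the 3 times in the authors' deposited table, and was lower at each.

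Genes that share known inducers with the metallothioneins were read beside them. The inducers themselves were not measured, and a link to the metallothionein values was not tested. Of 11 measured glucocorticoid-inducible genes, the authors' deposited table had 1 higher and 6 lower over gene bodies at 90 min, and 3 higher and 2 lower at 240 min. Of all genes of at least 1 FPKM, 15.9% were higher and 12.5% lower at 90 min, and 14.4% and 8.58% at 240 min. Fkbp5, a classic target, had log2 ratios of 0.80 and 1.95, and the tyrosine aminotransferase gene Tat -1.09 and -1.04, at 90 and 240 min in the authors' deposited table. Of 22 measured acute-phase genes, 18 were lower and 1 higher over introns at 240 min, next to 5.54% and 4.99% of genes of at least 1 FPKM, and the median intronic log2 ratio was -1.55 against 0.04 for all genes.

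Over gene bodies 5 of the 22 acute-phase genes were higher and 4 lower at 240 min, beside 14.4% and 8.58% of all genes of at least 1 FPKM. Intronic FPKM of Saa1, a serum amyloid gene, was 45.4 and 48.6 untreated, 78.9 and 20.99 at 90 min, and 3.41 and 1.85 at 240 min. Saa2 had 33.2 and 32.005 untreated, 51.9 and 15.1 at 90 min, and 1.89 and 1.06 at 240 min. As for Mt1 and Mt2, the 90 min pool of the smaller read total held the higher level and both 240 min pools were far below the untreated ones. The authors' deposited table gave 240 min intronic log2 ratios of -4.64 for Saa1, -4.95 for Saa2 and -4.84 for Socs3, the feedback inhibitor of cytokine signalling, though Socs3 introns had 0 and 1 reads there. Slc39a14, named with the metallothioneins as cytokine-inducible, was higher over introns, with 1.03 at 240 min in the authors' deposited table. A part of cytokines in any of these values was not tested.

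Patterns nearest to 5 of the 6 genes over gene bodies, by Euclidean distance over the 3 log2 ratios among genes of at least 1 FPKM, were as follows. Klkb1, Zmat1 and Tmcc1 lay nearest to Mt1 (distances 0.080 to 0.096), with Mt2 further off at 0.141. Hykk, Mylip and Cyp2j9 lay nearest to Mt2 (0.098 to 0.125), and Poglut1, Ick and Stip1 nearest to Mtf1 (0.020 to 0.027). Nasp, Slmo2 and Setdb2 were nearest to Slc30a1 (0.020 to 0.026). Slc39a14 had the sparsest neighbourhood, with Pprc1 at 0.112, Fitm2 at 0.121 and Ccdc186 at 0.234. The distances rest on 3 ratios that share their controls.

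Marker genes of liver cell types were summed, which does not measure shares of cells. All 6 of 6 hepatocyte markers were detected, with a summed level of 52333 FPKM untreated and 35975 at 240 min, where 3 of the 6 were called lower. Most of that sum was Alb, with 40684 and 40598 FPKM in the untreated pools. Kupffer cell markers summed to 167 FPKM untreated, 151 at 30 min, 126 at 90 min and 120 at 240 min, with 3 of 7 measured called lower at the last time. Neutrophil markers summed to 31.5, 12.1, 45.5 and 19.04 FPKM, with Camp at 0. Bile duct markers summed to 16.3 FPKM untreated and 38.2 at 240 min, with both measured ones called higher. Of all genes of at least 1 FPKM, 8.58% were lower and 14.4% higher at 240 min. Endothelial markers stayed between 78.5 and 85.7 FPKM and stellate cell markers between 72.6 and 83.0, and 5 of 6 markers of exocrine pancreas were listed at 0. The part of these shifts in the values above was not tested, and in bulk liver fewer cells of a type and less RNA per cell cannot be told apart.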

How the data were processed

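Directional libraries were made from polyadenylated RNA of 8 liver pools, per the labels. TopHat2, featureCounts, edgeR and build mm9 are named per the submitters' processing notes, without versions or settings. The authors deposited a table of mean FPKM per group, a normalized expression ratio of treated over untreated and an adjusted p-value, per the file headers. The untreated mean is repeated for each time, and 4 columns identical to one used were left out. A signed fold change, a score that the authors derived from the ratio, was not used. The method behind the p-value adjustment is not given in these sources, and a gene was called where it was below 0.05. The deposited ratio is shown as log2.

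Pool read totals were found from the most frequent values of 1 read in transcripts of known length. Exon length, intron length and whole reads of both pools were then solved so that every deposited FPKM was met to 0.51 of its last decimal place and the lengths summed to the genomic span. Of 10736 genes with at least 1 FPKM, 15 listed at separate places were set aside, 10671 (99.4%) had 1 solution, 30 had more than 1 and 20 had none. Tested on simulated data from 300 genes, 299 were recovered exactly and 0 wrongly. These genes came from those already solved and the same read totals were taken as known, so the test cannot show errors in the totals. Which recovered pool is which labelled pool is not known. Starts are given 1-based. Counting intervals are exact Poisson at 95%.

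The deposited table holds group means and not counts of single libraries, so the planned count test was not run. As an alternative chosen after seeing the data, limma was run over all solved genes on log2 of recovered reads plus 0.5, scaled by median-of-ratios size factors. Tested on simulated data for 240 min gene bodies (10671 genes), it called 57 of 100 genes changed 2-fold and 100 of 100 changed 4-fold, with 11 unchanged genes called. The simulated pools had the same spread in all groups. In the data the median gene body gap was 1.29-fold between the 30 min pools and 1.09-fold between the untreated pools, so the test does not give the power in these data. GC content and length, taken from each symbol's longest transcript in GENCODE M21 and found for 99.4% of genes of at least 1 FPKM, entered a robust regression, which was tested on simulated data. List members counted as measured had a mean of at least 1 FPKM, and for introns 0.01. The genes and lists were chosen with earlier results of these data known. Named were the 6 genes, up to 6 called genes per list, the most abundant transporters and 3 nearest patterns per gene, and not all of these are printed; the nearest patterns of Slc30a10 are not reported here. Alternatives were a stricter adjusted p of 0.01, a 2-fold minimum, filters on low values, pseudocounts of 1 and 0.1, removal of the median or of the length and GC trend, and leaving out each pool. Software was R 4.3.3 with limma 3.58.1, and Python 3.11.15 with numba 0.67.0, scipy 1.17.1, pandas 2.3.3, matplotlib 3.10.9, statsmodels 0.14.6 and numpy 2.4.6.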

Additional observations from a re-analysis of the deposited data

Results flagged for a closer look

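Over the Slc39a14 gene body, both pools at 30 min lay below both untreated pools (log2 ratio -0.09 in the authors' deposited table), while both pools at 90 min (0.92) and at 240 min (1.34) lay above them. Over the Mt1 gene body, both pools at 90 min lay above both untreated pools (0.15 in the authors' deposited table) and both at 240 min below (-0.82). Times that lay on opposite sides of both untreated pools drew attention to these values, and the difference between times was not tested. For Mt1 the lower pool at 90 min had 937 FPKM and the higher untreated pool 935. The latter rests on 5326 reads, with an exact Poisson interval of 5184 to 5471, so this gap was within counting error. In limma with all pools the 90 min difference of Mt1 was 0.16 on the log2 scale (adjusted p = 0.684). The 30 min value of Slc39a14 and the 90 min value of Mt1 were not called. Pools failed to overlap at 30 min in 38.3% and at 90 min in 69.9% of all solved genes.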

How the results depend on the processing

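Of 306 values of single genes under the alternatives, 282 moved by less than the spread between pools, 24 moved by more and 0 called values changed sign. An added 2-fold minimum took the gene body calls at 90 min from 1 to 0. Limma on the recovered reads, chosen after seeing the data, gave the same number of calls among the 6 genes at every time, but 1 rather than 5 of the other transporters at 90 min and 4 rather than 7 at 240 min. A stricter adjusted p of 0.01 left 2 of those 5. Leaving out each pool in turn, limma called 0 of the 6 genes at 30 min on either measure, 0 to 1 at 90 min and 1 to 5 at 240 min over gene bodies, and 0 to 3 at 90 min and 2 to 4 at 240 min over introns. Among the other transporters it called 0 to 2 at 30 min, 0 to 3 at 90 min and 0 to 6 at 240 min. Each highest count at 90 and 240 min was reached without a 30 min pool, and over all genes the gene body calls at 240 min were 1070 with all pools and 3037 and 3046 without either of the 30 min pools. The count of genes with their highest level at 240 min stayed at 4 without any 1 pool, though no share over all genes was counted beside it. The pools hold 2 replicates a group, which limits every test. The Mtf1 and Slc30a1 log2 ratios at 90 min, which were not called, went from 0.15 to -0.18 and from 0.06 to -0.19 with the length and GC trend removed. No paired analysis was possible because the deposited columns carry no replicate number and the recovered pools cannot be matched to the labelled ones.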
